A study of Mus musculus with 54 samples.

Results

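The nicotinic acetylcholine receptor of muscle and the proteins that anchor it under the motor nerve terminal were followed through differentiation of mouse myogenic progenitors with and without emerin, the nuclear membrane protein that is mutated in X-linked Emery–Dreifuss muscular dystrophy. The 10 genes described here were chosen by name from the known parts of the neuromuscular synapse, and all 10 were found by their NCBI gene numbers among the 19653 genes of the deposited tables. Chrna1, Chrnb1, Chrnd, Chrne and Chrng encode the receptor's subunits. Agrn, Lrp4, Musk and Dok7 encode the signal that gathers receptors into clusters, and Rapsn encodes the scaffold that holds them there. Expression was measured by sequencing of poly-A RNA in H2K cells, which are conditionally immortalized mouse myogenic progenitors. The 54 libraries fall into 18 groups of 3, made of 6 cell lines on differentiation days 0, 1 and 2, where day 0 is the plating at high density just before serum was withdrawn. The lines were wildtype, EMD-/y (emerin-null), and 4 lines made from the EMD-/y cells with lentivirus that carried wildtype emerin (+EMD) or the disease-causing emerin mutants S54F, Δ95–99 or Q133H. These 4 lines were selected and kept in puromycin, and the methods give the mutant lines a higher plating density than wildtype and EMD-/y, so transduction, selection and plating cannot be told apart from the emerin form in any comparison with those 2 lines. In the methods the puromycin dose also varied among the 4 lines, and it likewise cannot be told apart from the emerin form. Whether a line is a single clone is not given in the sources used here. Transduced cells that carried the empty vector were not analysed here.

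In developing muscle the fetal receptor holds 2 α subunits with a β, a δ and a γ subunit, and in adult fibers the ε subunit takes the place of γ. Agrin, secreted by the motor nerve and in another form by muscle itself, binds LRP4 on the muscle surface, LRP4 then activates the receptor kinase MuSK, DOK7 binds MuSK from inside the cell and is needed for its full activity, and rapsyn clusters the receptors beneath. The receptor genes are switched on when myoblasts leave the cell cycle and fuse, through E-boxes that bind MyoD and myogenin, and in mature fibers are held on only under the nerve, in part through a sequence called the N-box.

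In the GRCm38 (mm10) build, the build named in the submitters' processing notes, with GENCODE vM21 gene models, Chrna1 lies on the minus strand of chr2:73563215-73580338, Chrnb1 on the minus strand of chr11:69784036-69795943, Chrne on the minus strand of chr11:70614883-70619216, and Chrnd and Chrng follow each other on the plus strand of chromosome 1, at chr1:87190607-87200070 and chr1:87204657-87212694. Of the clustering genes, Agrn is on the minus strand of chr4:156165290-156197488, Musk on the plus strand of chr4:58285960-58374303, Dok7 on the plus strand of chr5:35056766-35087839, and Rapsn and Lrp4 on the plus strand of chromosome 2, at chr2:91035620-91045729 and chr2:91457511-91513779. Among the 10, exons shared with another gene were found only for Rapsn, which has 4 exon bases in common with Gm13778 on the other strand. Whether reads were counted by strand is not given in the sources used here.

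Promoter sequence was read from RefSeq (GRCm38.p6) over 220 bases, from 250 to 31 bases before each transcription start, for the 7 of these genes with an entry (Chrnd, Rapsn and Lrp4 had none). Windows were searched on both strands for the E-box CANNTG, for its form CAGCTG, and for the N-box core CCGGAA, so every CAGCTG also counts as a CANNTG. The windows of the fetal subunit Chrng, of Chrna1, which every muscle receptor needs, and of the adult subunit Chrne are printed below, since Chrna1 and Chrng were the most abundant subunit messages of wildtype per length on day 2 and Chrne the least abundant. They run 5′ to 3′ on the gene's own strand, with CAGCTG and CCGGAA in capitals.

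Chrng, chr1:87205561-87205780, plus strand: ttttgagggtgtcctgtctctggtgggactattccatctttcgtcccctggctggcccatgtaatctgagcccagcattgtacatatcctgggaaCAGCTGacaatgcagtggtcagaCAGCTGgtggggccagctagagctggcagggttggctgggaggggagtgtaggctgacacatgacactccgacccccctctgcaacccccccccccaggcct

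Chrna1, chr2:73580369-73580588, minus strand: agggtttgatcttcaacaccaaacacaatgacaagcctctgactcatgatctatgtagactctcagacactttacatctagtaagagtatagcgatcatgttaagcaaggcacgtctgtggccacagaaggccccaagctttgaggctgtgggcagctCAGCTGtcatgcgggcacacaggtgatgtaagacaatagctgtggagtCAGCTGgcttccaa

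Chrne, chr11:70619225-70619444, minus strand: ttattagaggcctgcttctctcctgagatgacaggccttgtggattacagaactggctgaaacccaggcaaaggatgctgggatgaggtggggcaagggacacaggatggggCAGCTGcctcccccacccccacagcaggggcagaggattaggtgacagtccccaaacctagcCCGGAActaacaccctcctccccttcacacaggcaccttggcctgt

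Chrng held CAGCTG at 155 to 150 and at 132 to 127 bases before its start, and Chrna1 held it at 92 to 87 and at 44 to 39 bases. In Chrne there was a CAGCTG whose first base lay 138 bases before the start and an N-box core, on the gene's strand, at 76 to 71 bases. Musk held a CAGCTG at 68 to 63 bases, while the windows of Chrnb1, Dok7 and Agrn had neither CAGCTG nor CCGGAA. Over all 32851 promoter windows of this length, 62.1% held a CANNTG, 11.4% a CAGCTG (0.983% held 2 or more) and 9.47% a CCGGAA. These matches describe the letters of the windows, and no binding was measured.

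Library sizes ran from 17.1 to 20.2 M reads, and levels are given as normalized counts, which are reads divided by each library's size factor. Emd itself was at 1145 to 2052 normalized counts in the 9 wildtype libraries and at 0 to 2.9 in the other 45, +EMD included, so the emerin delivered by lentivirus was not seen at the mouse gene and Emd does not separate the transduced lines from EMD-/y. The cells expressed the muscle markers fixed for this check, with Des between 7215 and 73018 normalized counts in every library. Of the markers of cells that a nerve would bring, Sox10 of Schwann cells had no read, and Chat, Slc18a3 and Mnx1 of motor neurons stayed at or under 1.16. The other markers of Schwann cells reached 28.8 at most, Slc5a7 of motor neurons reached 130, Snap25 and Isl1 38.4 at most, and the 3 endothelial markers 49.9 at most. Of the macrophage markers, Ptprc and Adgre1 stayed at or under 4.56, while Cd68 reached 148 and was higher in Q133H than in wildtype on day 2 (means of 113 and 24.9, 2.10 ± 0.30). The libraries of a group were not equally alike. In each group a pair of libraries was closer in its read counts (mean chi-square per gene 2.37 to 10.8, where 1 is counting noise alone) than the next closest pair (9.98 to 97.2), and the library outside the closest pair, called the library apart below, is named where a result rests on it. It stood furthest off in Q133H on day 2 (library 3). The study's methods give 3 technical replicates for each of 2 biological replicates, and which kind these libraries are is not given in the labels, so p-values here measure only the spread between these libraries, which may be partly technical.

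The 4 subunit genes of the fetal receptor rose together as wildtype cells differentiated. Chrna1, the α subunit that carries the binding sites for acetylcholine, was at 6891, 7057 and 10501 normalized counts on day 0, at 20019, 21197 and 23234 on day 1 and at 43696, 40868 and 44063 on day 2. The days did not overlap. Chrng, the fetal γ subunit, was at 735, 831 and 805 on day 0, at 4900, 4218 and 4999 on day 1 and at 10969, 10856 and 11660 on day 2, a larger relative climb that again left no overlap between days. For Chrnd, the δ subunit, the values were 925, 924 and 1001, then 3934, 3430 and 3878, then 6075, 6579 and 6419. Chrnb1, the β subunit, went from 1736 ± 414 (SD, n = 3) on day 0 through 3494 ± 449 to 5140 ± 223 on day 2. Each difference below is on the log2(normalized count + 1) scale with its standard error from limma, with p-values adjusted by Benjamini and Hochberg over the 15808 genes tested, and a gene is said to have risen or fallen when its adjusted p was under 0.05 and it differed at least 2-fold. Since all groups share a single fit, a gene's standard error is pooled over them and is not the spread of the groups compared. From day 0 to day 1 of wildtype, Chrng rose by 2.57 ± 0.30 (5.94-fold, adjusted p = 2.03e-09), Chrnd by 1.98 ± 0.22 (3.94-fold), Chrna1 by 1.42 ± 0.24 (2.68-fold) and Chrnb1 by 1.03 ± 0.15 (2.04-fold). The Chrnb1 call did not hold without library 1 or library 2 of day 0 or library 3 of day 1, where its difference was 0.92 to 0.95.

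Chrne, the adult ε subunit, was close to absent. Only 19 of its reads were counted over all 54 libraries, in 15 of them, with at most 2 in a library, and the highest level was 2.34 normalized counts, in EMD-/y on day 2. In wildtype the 3 libraries of day 2 read 2.22, 0 and 0. Every library was under the floor of 3 reads, and the gene's mean of 0.366 fell under the minimum of 1 normalized count for testing, so no fold change is given for it in any comparison and 9 of the 10 genes were tested. A difference in Chrne between lines or days was not detectable at this depth.

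Among the clustering genes of wildtype cells, Lrp4, the agrin receptor, was at 1475, 1637 and 2175 normalized counts on day 0, at 5010, 6543 and 7443 on day 1 and at 7009, 6834 and 7199 on day 2, so that most of its climb lay before day 1. Rapsn went from 989 ± 39.9 through 2578 ± 153 to 3871 ± 99.8, and Dok7 from 556 ± 116 through 1585 ± 225 to 2180 ± 145 (mean ± SD, n = 3). Musk, the kinase, was at 1425 ± 156, 2744 ± 275 and 4465 ± 242. Agrn took no part in this climb, with 1261 ± 37.0, 1134 ± 174 and 1170 ± 91.7 on the 3 days. From day 0 to day 1, Lrp4 rose by 1.85 ± 0.21 (3.59-fold), Dok7 by 1.52 ± 0.35 (2.87-fold) and Rapsn by 1.38 ± 0.17 (2.60-fold). Musk differed by 0.95 ± 0.23 with an adjusted p of 0.000621 but short of 2-fold, and Agrn by -0.16 ± 0.16 (adjusted p = 0.398). In all, 7 of the 9 tested genes rose from day 0 to day 1 of wildtype, where 12.1% of all genes tested did, and only Chrng rose again by more than 2-fold from day 1 to day 2 (1.25 ± 0.30, adjusted p = 0.000501, with 8.05% of all genes called higher). Together the 10 genes took 0.0974% of all wildtype reads on day 0, 0.261% on day 1 and 0.394% on day 2, and over the 54 libraries this share ran from 0.0675 to 0.404%.

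Levels of different genes are compared per length of transcript. On day 2 of wildtype the order in normalized counts per kilobase was Chrna1 (9925 ± 405), Chrng (5810 ± 227), Rapsn (2400 ± 61.9), Chrnb1 (2141 ± 92.9), Chrnd (2108 ± 85.3), Lrp4 (878 ± 22.9), Dok7 (760 ± 50.6), Musk (746 ± 40.4), Agrn (158 ± 12.4) and Chrne (0.463 ± 0.802). Chrnb1 and Chrnd overlapped in their libraries, as did Dok7 and Musk, and these neighbours did not differ beyond their spread. Chrng had stood behind Chrnb1 and Rapsn on day 0 (411 ± 25.9 against 723 ± 173 and 613 ± 24.7) and was ahead of both on day 2.

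**Figure D1:**
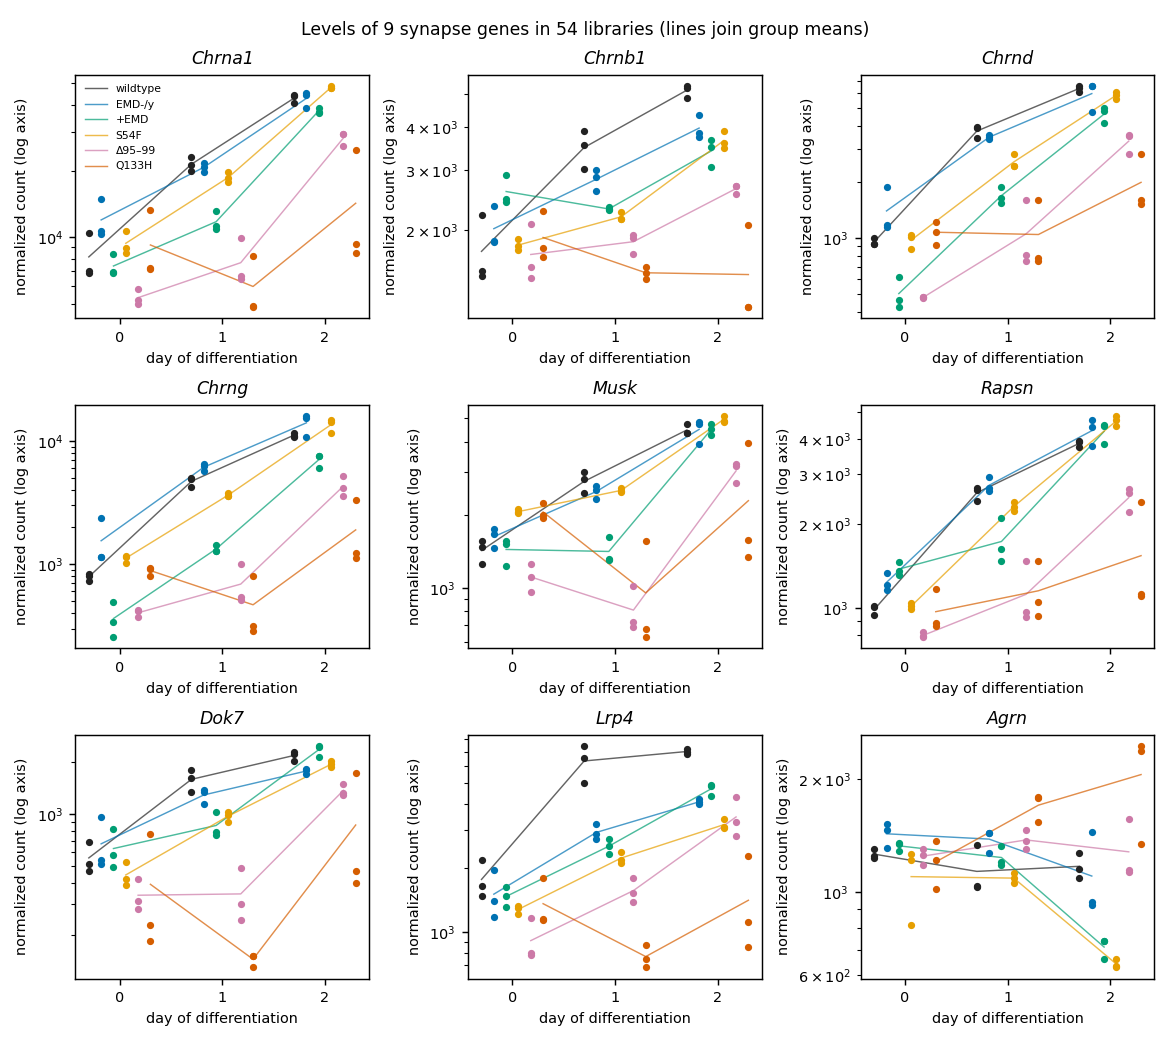
Normalized counts (y axis, log scale) of the 9 tested genes in each of the 54 libraries against the day of differentiation (x axis), colored by cell line. Each point is a library and lines join the means of 3. Wildtype Chrna1 goes from a mean of 8150 on day 0 to 42876 on day 2, and on day 2 the Q133H mean is the lowest in every panel but that of Agrn, where it is the highest (2057).

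Before serum withdrawal few of these genes differed 2-fold between lines. On day 0 limma called 0 of the 9 tested genes against wildtype in EMD-/y, S54F, Δ95–99 or Q133H, where 3.38%, 5.86%, 6.22% and 8.49% of all genes were called lower, although 3, 2, 5 and 2 of the 9 had an unadjusted p under 0.05. In +EMD 1 gene fell (10.9% of all genes called lower). That gene was Chrng, at 255, 339 and 491 normalized counts in +EMD against 735 to 831 in wildtype, a difference of -1.18 ± 0.30 (2.26-fold lower, adjusted p = 0.00124). Without +EMD library 1 the difference was -0.95 and the call was lost. Δ95–99 came close on day 0 for Chrnd (-0.99 ± 0.22), Chrng (-0.97 ± 0.30) and Lrp4 (-0.96 ± 0.21), each with an adjusted p of 0.0107 or less but short of 2-fold. When 1 library was left out all 3 passed 2-fold without wildtype library 1, and Chrnd and Lrp4 without wildtype library 2, Chrng without Δ95–99 library 1 and Lrp4 without Δ95–99 library 3, with largest differences of -1.01 for Chrnd, -1.02 for Chrng and -1.15 for Lrp4. In EMD-/y, Chrng was at 1135, 1145 and 2366, above wildtype in every library, with a difference of 0.88 ± 0.30 (adjusted p = 0.0318). The difference was called higher without library 1 or library 2 of EMD-/y, at up to 1.06. Without library 3 of EMD-/y, the library apart, it was 0.53. In Q133H, Dok7 differed by -0.79 ± 0.35 (184, 228 and 763 against 468 to 687), and without library 3 by -1.42, which was called.

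On day 1 receptor subunits and clustering genes fell widely in Q133H and Δ95–99. In Q133H, 8 of the 9 tested genes fell against wildtype (14.3% of all genes called lower), and in Δ95–99 7 of 9 did (11.7%). Chrng was at 798, 289 and 316 normalized counts in Q133H and at 1008, 545 and 514 in Δ95–99, against 4218 to 4999 in wildtype. All 6 libraries lay under the wildtype range, with differences of -3.49 ± 0.30 (11.2-fold lower, adjusted p = 7.89e-13) and -2.84 ± 0.30 (7.14-fold lower, adjusted p = 2.70e-10). Chrna1 was at 8245, 4877 and 4823 in Q133H and at 9901, 6650 and 6462 in Δ95–99, where wildtype libraries had at least 20019, and fell by 1.89 ± 0.24 and by 1.51 ± 0.24. Chrnd fell by 1.94 ± 0.22 in Q133H and by 1.92 ± 0.22 in Δ95–99. Chrnb1, the least moved subunit, fell by 1.21 ± 0.15 in Q133H and differed by -0.91 ± 0.15 in Δ95–99, short of 2-fold. The libraries apart of these 2 groups (library 1 in each) held the highest of the 3 values for Chrna1, Chrnd and Chrng.

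The clustering genes of Q133H and Δ95–99 on day 1 fell with the subunits, Agrn excepted. Dok7 was at 151, 150 and 129 normalized counts in Q133H and at 487, 302 and 244 in Δ95–99, against 1345, 1619 and 1792 in wildtype, differences of -3.45 ± 0.35 (10.9-fold lower) and -2.25 ± 0.35 (4.76-fold lower). Musk fell by 1.65 ± 0.23 in Q133H and by 1.78 ± 0.23 in Δ95–99, and Rapsn by 1.18 ± 0.17 and by 1.23 ± 0.17. Agrn went the other way, with 1541, 1794 and 1777 in Q133H above all 3 wildtype libraries (1334, 1030 and 1036), a difference of 0.59 ± 0.16 (adjusted p = 0.00165) that was short of 2-fold. In Δ95–99 the Agrn difference was 0.29 ± 0.16 (adjusted p = 0.129).

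Lrp4 was the gene that fell in every line on day 1. It was at 2721, 2865 and 3200 normalized counts in EMD-/y, at 2328, 2526 and 2713 in +EMD, at 2382, 2104 and 2171 in S54F, at 1381, 1790 and 1515 in Δ95–99 and at 869, 747 and 681 in Q133H, all under the lowest wildtype library (5010). The differences from wildtype were -1.10 ± 0.21 in EMD-/y (2.14-fold lower, adjusted p = 0.000184), -1.31 ± 0.21 in +EMD, -1.5 ± 0.21 in S54F, -2.01 ± 0.21 in Δ95–99 and -3.03 ± 0.21 in Q133H (8.19-fold lower, adjusted p = 3.00e-15). Only Lrp4 of the 9 was called lower in EMD-/y (2.44% of all genes) and in S54F (5.93%), and these 5 comparisons share the 3 wildtype libraries. The EMD-/y call did not hold without wildtype library 3, where the difference was -0.97. In +EMD 3 genes fell on day 1 (10.2% of all genes called lower), namely Lrp4, Chrng by 1.82 ± 0.30 (3.54-fold lower) and Chrnd by 1.15 ± 0.22 (2.23-fold lower). Its Chrng libraries read 1268, 1288 and 1428, between those of S54F (3543 to 3808) and of Δ95–99 (514 to 1008). With no fold minimum, limma gave 8 of the 9 tested genes of +EMD as lower on day 1 at an adjusted p under 0.05. Musk (-0.96), Dok7 (-0.89), Chrna1 (-0.87), Chrnb1 (-0.59) and Rapsn (-0.59) were short of 2-fold there. Musk and Dok7 passed 2-fold without wildtype library 1 or +EMD library 3.

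By day 2 most genes of +EMD, S54F and Δ95–99 were within 2-fold of wildtype, and those of Q133H were not. With limma 0 of the 9 tested genes were called in EMD-/y (2.80% of all genes called lower) or in +EMD (7.50%), and 2 and 5 of them had an unadjusted p under 0.05. In S54F Lrp4 alone fell (4.78%), at 3088, 3063 and 3396 normalized counts against 6834 to 7199, a difference of -1.14 ± 0.21. In Δ95–99 Chrng and Lrp4 fell (8.81%), Chrng at 3557, 4143 and 5192 against 10856 to 11660 (-1.39 ± 0.30, adjusted p = 0.000131) and Lrp4 by 1.04 ± 0.21. The Lrp4 call in Δ95–99 was lost without library 2 of that group, with a difference of -0.90. In EMD-/y and +EMD, Lrp4 stayed under every wildtype library on day 2 but within 2-fold, at -0.78 ± 0.21 (adjusted p = 0.00644) and -0.58 ± 0.21 (adjusted p = 0.0215). Chrna1 of EMD-/y differed from wildtype by -0.01 ± 0.24 on day 2, and its Chrng by 0.31 ± 0.30 (95% interval -0.30 to 0.91).

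In Q133H, 8 of the 9 tested genes fell against wildtype on day 2 (15% of all genes called lower). Chrna1 was at 8526, 9308 and 25008 normalized counts against 40868 to 44063, and Chrng at 1121, 1232 and 3337 against 10856 to 11660. Library 3, the library apart, was the highest of the 3 for each of the 8 and lowest for Agrn, and it still lay under all wildtype libraries for each of the 8. The differences were -2.74 ± 0.30 for Chrng (6.70-fold lower), -2.45 ± 0.21 for Lrp4 (5.45-fold), -1.84 ± 0.15 for Chrnb1, -1.77 ± 0.24 for Chrna1, -1.74 ± 0.22 for Chrnd, -1.67 ± 0.35 for Dok7, -1.43 ± 0.17 for Rapsn and -1.14 ± 0.23 for Musk. Without the library apart in each group they were larger, at -3.27 for Chrng, -2.87 for Lrp4, -2.39 for Dok7, -2.30 for Chrna1, -2.14 for Chrnb1, -2.00 for Chrnd, -1.81 for Rapsn and -1.57 for Musk. The Musk call was lost without library 1 (-0.84) or library 2 (-0.96) of Q133H.

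Agrn was the exception in Q133H on day 2, at 2376, 2452 and 1342 normalized counts against 1091 to 1271 in wildtype, a difference of 0.77 ± 0.16 (adjusted p = 6.20e-05) that passed 2-fold only without library 3 (1.05). Agrin of S54F and +EMD lay on the other side, at 632, 662 and 628 and at 660, 739 and 739, with differences of -0.87 ± 0.16 (adjusted p = 4.89e-05) and -0.71 ± 0.16 (adjusted p = 0.00027). These 6 libraries were all under the lowest wildtype library (1091), and neither difference reached 2-fold. No gene of the 9 was called higher than in wildtype on any day with limma. Among all genes, 4.56%, 5.79%, 5.68%, 5.40% and 6.10% were called higher on day 0 in EMD-/y, +EMD, S54F, Δ95–99 and Q133H, 4.35%, 8.95%, 6.01%, 9.21% and 9.64% on day 1, and 5.02%, 11.2%, 6.55%, 13.2% and 17.8% on day 2. Over the 15 comparisons with wildtype, 32 calls were lower and 0 higher with limma, and with no fold minimum 54 were lower and 5 higher at an adjusted p under 0.05.

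**Figure D2:**
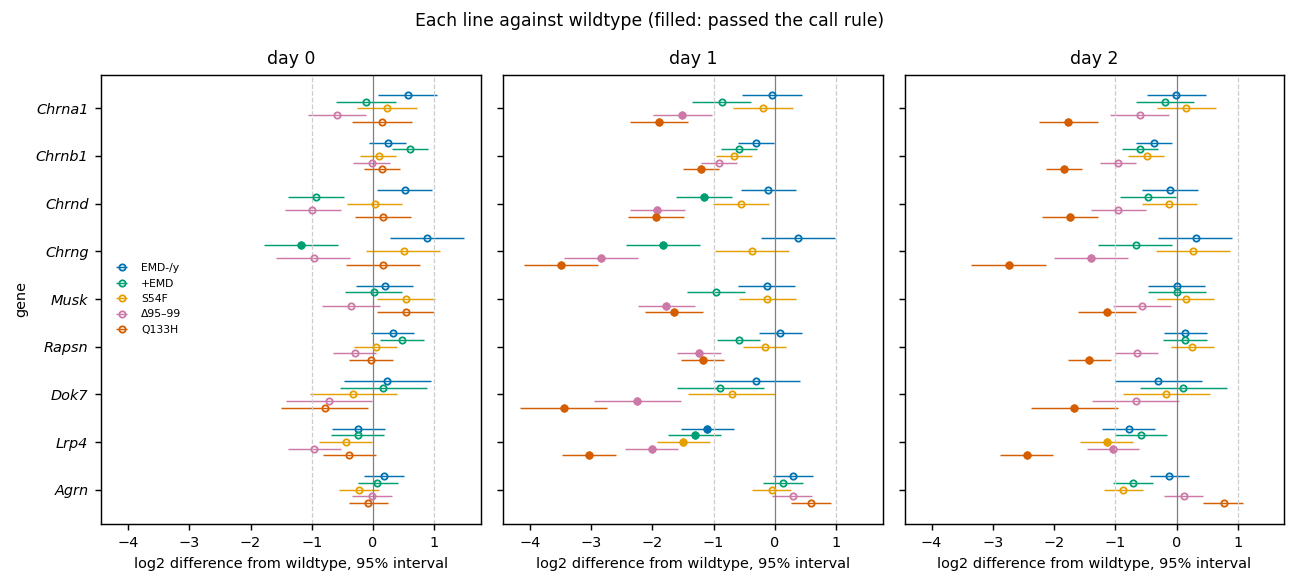
Log2 difference of each line from wildtype on the same day for the 9 tested genes (x axis, log2 of normalized count + 1), with 95% confidence intervals from limma, filled where called at an adjusted p under 0.05 and 2-fold. Q133H and Δ95–99 lie far left on day 1 (Chrng at -3.49 and -2.84), Q133H stays there on day 2, and Agrn lies to the right of 0 in Q133H (0.77 on day 2).

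The summed level of the 6 myogenic markers was also lower in Q133H and Δ95–99 than in wildtype on days 1 and 2. On day 2 the sum was 155788 to 160319 normalized counts in wildtype, 111846 to 128671 in Δ95–99 and 39875 to 111304 in Q133H. On day 1 it was 88938 to 101249 in wildtype, 35308 to 54603 in Δ95–99 and 18285 to 28551 in Q133H. In +EMD on day 1, where Chrng, Chrnd and Lrp4 fell, the sum was 73015 to 93905 and overlapped that of wildtype. Later muscle genes of +EMD did not match wildtype that day. Of the 10 late muscle products described further below, 8 fell (median difference -1.51, with 10.2% of all genes called lower). All 6 had reads in every group, and Des, Myod1, Cdh15 and Myog made up most of the sum. The 6 did not move alike. In Q133H 5 were lower and 1 higher on day 1 and 4 lower and 1 higher on day 2, Myf5 being the one that rose, and in Δ95–99 2 were lower and 2 higher on day 1 and 0 lower and 2 higher on day 2. Pax7, a gene of muscle progenitors, had means of 56.4 in wildtype, 1008 in Δ95–99 and 8.18 in Q133H on day 2, and Myf5, an early myogenic regulator, 146, 1123 and 679. Among the defining regulators, Myog, which binds the E-boxes of the receptor genes, had a mean of 36483 in wildtype on day 1, 9782 in Δ95–99 (-1.97 ± 0.39) and 2781 in Q133H (-3.71 ± 0.39). In bulk RNA, fewer differentiated cells and less message per cell cannot be told apart, and the part of these markers in the falls above was not tested. Of the 4 fibroblast markers, all with reads, Col1a1 was lower in Q133H than in wildtype on day 2 (means of 704 and 5176) and carried the lower sum of the list (1219 to 2085 against 4112 to 6687). Pdgfra was higher there (70.6 and 32.6), Ly6a differed by 1.54 ± 0.81 (913 and 307, adjusted p = 0.0916), and the median difference of the list was 0.53.

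The number of these genes that passed the 2-fold call between days varied from line to line. Such counts do not show that the change of a line differed from that of wildtype, which is tested directly further below. From day 0 to day 1, 3 of the 9 tested genes rose in EMD-/y (12.4% of all genes called higher), 2 in +EMD (10.9%), 5 in S54F (9.24%), 1 in Δ95–99 (6.91%) and 0 in Q133H (5.23%), where limma called 3 lower (6.37% of all genes called lower) and 7 of the 9 had an unadjusted p under 0.05. Chrnd rose in each of the first 4 of these lines, by 1.35 ± 0.22, 1.76 ± 0.22, 1.40 ± 0.22 and 1.04 ± 0.22, though in Δ95–99 the difference was 0.70 without library 1 of day 1 and was no longer called. Chrng rose by 2.07 ± 0.30 in EMD-/y, 1.92 ± 0.30 in +EMD and 1.71 ± 0.30 in S54F. The Chrna1 call of S54F, at 2-fold, was lost without library 1 or 2 of day 0 or library 3 of day 1 (down to 0.93). In Q133H the 3 genes that fell were Musk by 1.24 ± 0.23, Dok7 by 1.14 ± 0.35 and Chrng by 1.08 ± 0.30. Musk went from 1933, 1995 and 2228 to 1559, 674 and 626. The Dok7 fall rested on library 3 of day 0 (763 against 184 and 228 in the other 2 libraries), without which the difference was -0.51. The Chrng call was lost without library 2 (-0.82) or library 3 (-0.88) of day 1, and the Musk call without library 3 of day 1 (-1.0, short of 2-fold).

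From day 1 to day 2 the lines differed again in how many genes rose. Δ95–99 had 7 of 9 genes rise (8.86% of all genes called higher) and +EMD 6 (10.9%), S54F and Q133H 4 each (9.10% and 6.53%), EMD-/y 2 (7.50%) and wildtype 1. In Δ95–99 Chrng rose by 2.69 ± 0.30 (6.46-fold), Dok7 by 2.05 ± 0.35, Musk by 1.92 ± 0.23 and Chrna1 by 1.91 ± 0.24. In +EMD Chrng rose by 2.40 ± 0.30 (5.28-fold), with Chrna1 and Musk up by 1.68 each. Dok7 showed the largest rise of Q133H, 2.25 ± 0.35, from 151, 150 and 129 normalized counts to 397, 466 and 1723. Chrna1 (1.12 ± 0.24) and Musk (1.22 ± 0.23) of Q133H were within 2-fold without library 3 of day 2 (0.62 and 0.74) or library 3 of day 1 (0.99 and 0.98), and Chrna1 also without library 2 of day 1 (0.99). The call of Chrna1 in EMD-/y (1.04) was lost without library 1 of day 1 or library 2 of day 2, that of Rapsn in S54F (1.01) without library 3 of either day, and that of Lrp4 in Δ95–99 (1.13) without library 1 of day 2. Wildtype Chrna1, at 2-fold but not past it, was called without library 3 of day 1 or library 2 of day 2 (up to 1.06). Agrn was called in neither direction in any line between days, and its lowest values were -0.79 ± 0.16 in +EMD and -0.76 ± 0.16 in S54F from day 1 to day 2. Total-count scaling in place of size factors moved the median difference of all genes by up to 0.3 on the log2 scale, for example to -0.2 between days 1 and 2 of wildtype, and the differences given here are on the size-factor scale, where that median was within 0.08 of 0 in these comparisons.

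**Figure D3:**
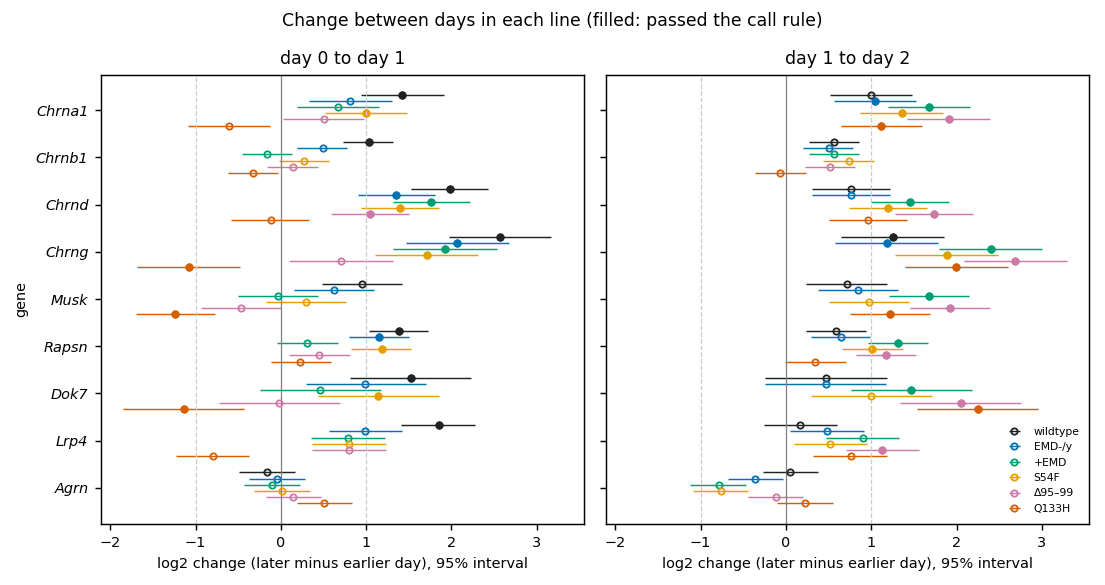
Log2 change of the 9 tested genes from day 0 to day 1 and from day 1 to day 2 within each line (x axis, log2 of normalized count + 1), with 95% confidence intervals from limma. Wildtype Chrng changes by 2.57 and then 1.25, Δ95–99 Chrng by 0.70 and then 2.69, and Q133H Chrng by -1.08 and then 1.99.

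The change of each line was set against the change of wildtype by testing the difference itself. From day 0 to day 1 the change was smaller than that of wildtype for 8 of 9 genes in Q133H (10.1% of all genes called lower), 4 in Δ95–99 (6.36%), 3 in +EMD (2.69%), 1 in S54F (2.27%) and 0 in EMD-/y (0.221%, with limma, where 2 of the 9 had an unadjusted p under 0.05). The EMD-/y differences ran from -0.86 ± 0.30 for Lrp4 (adjusted p = 0.25) to 0.12 ± 0.23 for Agrn, and no gene of the 9 had an adjusted p under 0.05. In Q133H the largest were Chrng (-3.65 ± 0.42, adjusted p = 1.23e-08), Dok7 (-2.66 ± 0.50) and Lrp4 (-2.64 ± 0.30). From day 1 to day 2 the change exceeded that of wildtype for Chrng, Musk and Dok7 in Δ95–99 (7.57% of all genes called higher), for Chrng in +EMD (5.42%) and for Dok7 in Q133H (10.6%), and for 0 in S54F (0.879%) or EMD-/y (0.462%) with limma, where 1 and 0 of the 9 had an unadjusted p under 0.05. With the closest pair of libraries in each group averaged to a single value, 10 of these 21 calls were kept, all 8 of the falls in Q133H among them.

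Transduced lines were also set against EMD-/y, the cells they were made from. On day 0 Chrng was at 255 to 491 normalized counts in +EMD and at 369 to 421 in Δ95–99 against 1135 to 2366, and its differences were -2.06 ± 0.30 (4.16-fold lower) and -1.85 ± 0.30 (3.61-fold lower). Those of Chrnd were -1.45 ± 0.22 and -1.5 ± 0.22. With Chrna1 in Δ95–99 (-1.16, and -0.99 without library 3 of EMD-/y), this made 2 of 9 genes in +EMD (8.93% of all genes called lower) and 3 in Δ95–99 (4.62%). In Q133H 1 gene fell (7.36%), Dok7 at -1.02 ± 0.35, and without library 3 of EMD-/y or library 1 or 2 of Q133H its difference was -0.62 to -0.78 and was not called. S54F had 0 called by limma on any day (2.17%, 3.54% and 1.68% of all genes called lower on days 0, 1 and 2), with 2, 3 and 1 of the 9 at an unadjusted p under 0.05, and Agrn on day 2 (-0.75 ± 0.16, adjusted p = 0.00213) was its only gene with an adjusted p under 0.05. The 95% intervals of its Chrna1 difference from EMD-/y were -0.82 to 0.14, -0.63 to 0.33 and -0.31 to 0.65 on the 3 days, so differences of up to those sizes were not excluded. On day 1, 7 of 9 genes fell in Q133H (14.3%), 6 in Δ95–99 (11.0%) and 2 in +EMD (9.35%), where Chrnd (-1.05) was not called without library 1 of +EMD (-0.98). The differences of Chrng from EMD-/y were -3.87 ± 0.30 in Q133H (14.6-fold lower), -3.22 ± 0.30 in Δ95–99 (9.31-fold lower) and -2.20 ± 0.30 in +EMD (4.61-fold lower). On day 2 all genes but Agrn fell in Q133H (8 of 9, 14.7%), with the calls of Musk (-1.14) and Dok7 (-1.37) lost without library 1 of Q133H (-0.84 and -0.98) and that of Musk also without library 2, only Chrng in Δ95–99 (-1.70 ± 0.30, 7.85%) and 0 in +EMD (5.66%, with 2 of the 9 at an unadjusted p under 0.05), whose Chrng was at 7502, 6036 and 7583 against 10717, 15391 and 16004 (-0.98 ± 0.30, adjusted p = 0.00698, short of 2-fold). Lrp4, lower than wildtype in EMD-/y, was also lower than in EMD-/y in Q133H on day 1 (-1.94 ± 0.21) and day 2 (-1.66 ± 0.21).

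The share of fetal γ subunit message relative to α subunit message differed between lines, and its mean was higher on day 2 than on day 0 in each. Per length, Chrng message was 22.6 ± 4.78% of Chrna1 message in wildtype on day 0 (mean ± SD, n = 3), 49.4 ± 5.22% on day 1 and 58.6 ± 1.84% on day 2. In EMD-/y it was 28.1%, 66.2% and 73.3% on the 3 days, and in S54F 27.1%, 43.9% and 63.6%. The share was lower in +EMD, at 10.8%, 25.4% and 42.2%, and in Δ95–99, at 17.1%, 19.7% and 34.1%. In Q133H it was 23.3% on day 0, 16.6% on day 1 and 29.8% on day 2, and the 3 Q133H libraries of day 2 lay between 29.6 and 30% although their Chrna1 levels differed by more than 2-fold. These shares are ratios within a library and carry no test of their own.

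**Figure D4:**
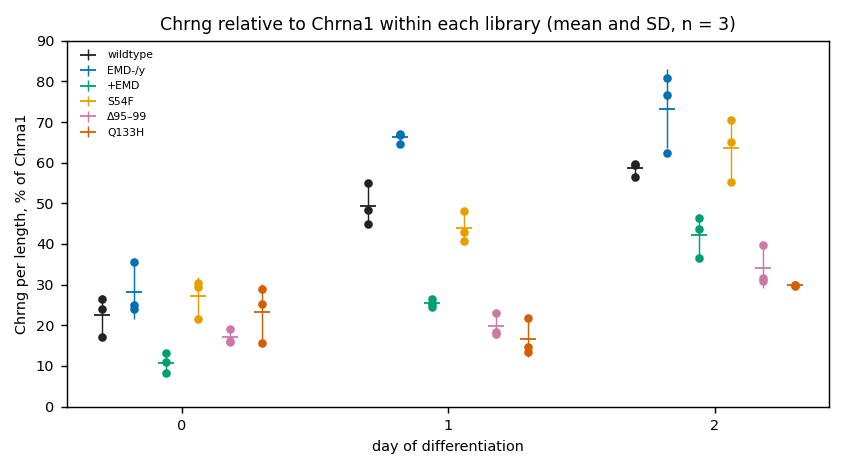
Chrng message as a percent of Chrna1 message per transcript length in each library, by line and day (y axis starts at 0). Points are libraries, and dashes with bars are the mean and SD of 3. Wildtype climbs from 22.6% to 58.6%, EMD-/y reaches 73.3% on day 2, and Q133H ends at 29.8%.

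A list of 43 other genes of the neuromuscular synapse was tested as well. Against wildtype on day 2, 1 of 43 was lower and 2 higher in EMD-/y, 5 lower and 3 higher in +EMD, 2 lower and 2 higher in S54F, 9 lower and 3 higher in Δ95–99, and 18 lower and 4 higher in Q133H. Among all genes 2.80%, 7.50%, 4.78%, 8.81% and 15% were lower and 5.02%, 11.2%, 6.55%, 13.2% and 17.8% higher in these lines. The list's counts in EMD-/y, +EMD and S54F were thus near the background. The median difference of the list was -0.71 in Q133H and -0.42 in Δ95–99, where the median of all genes was 0.02 and 0.01. On day 1, 20 were lower in Q133H and 17 in Δ95–99, with 2 higher in each (14.3% and 11.7% of all genes called lower, 9.64% and 9.21% higher). The values of single genes that follow are again against wildtype on day 2. Colq, the collagen tail that anchors acetylcholinesterase in the synaptic cleft, fell in EMD-/y (139 against 358 normalized counts, -1.43 ± 0.40), in +EMD (-1.49 ± 0.40) and in S54F (-1.46 ± 0.40). Ache, the esterase itself, fell in S54F by 1.59 ± 0.59 (23.3 against 69.6). Scn4a, the sodium channel of muscle, had means of 1303 in wildtype, 257 in Δ95–99 and 6.09 in Q133H (-7.68 ± 0.53). Erbb2, which encodes a co-receptor in neuregulin signaling, fell by 2.02 ± 0.15 in Δ95–99 (808 against 3287). Nrg1, which encodes neuregulin, rose in Δ95–99 by 1.79 ± 0.29 and in Q133H by 1.55 ± 0.29. Col13a1, a synaptic collagen, fell in Q133H (2.22 against 79.3, -4.60 ± 0.67). Ngef, which had a mean of 6.49 in wildtype, rose in EMD-/y (35.6), S54F (34.5), Δ95–99 (74.0) and +EMD. Erbb4, which encodes a neuregulin receptor, had no read in the wildtype libraries. It was called higher at means of 11.4 in EMD-/y, 5.42 in S54F and 28.4 in Q133H. No fold is given for it, since its fitted difference depends on the pseudocount. Lama4, a laminin chain of the basal lamina, fell in +EMD (-4.34 ± 0.71) and in Δ95–99 (-2.24 ± 0.71). The kinase gene Pak1 (1.29 ± 0.12) and Sntb2 (1.09 ± 0.11) rose in +EMD, and Sntb2 rose also in Δ95–99 (1.14 ± 0.11). In Q133H the kinase gene Src rose by 1.48 ± 0.10, and Sorbs2 fell by 3.84 ± 0.41.

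Message for neuronal-type receptor subunits was near the limit of counting. Of 11 such genes, Chrna6 and Chrnb3 had no read, 3 passed the minimum for testing, and none exceeded 15.6 normalized counts in any library. The 5 genes for protein glycosylation whose human counterparts are mutated in congenital myasthenia had 0 calls against wildtype on any day, with list medians from -0.48 to 0.30. Regulators of muscle transcription (12 tested of 13) gave 8 lower and 1 higher on day 1 in Q133H (14.3% and 9.64% of all genes) and 7 lower and 1 higher in Δ95–99 (11.7% and 9.21%), the gene that rose being Myf5 in each (1.77 ± 0.26 and 2.67 ± 0.26). Mef2c, a late regulator, had a mean of 3972 in wildtype on day 1, 286 in Q133H (-3.76 ± 0.58) and 85.7 in Δ95–99 (-5.50 ± 0.58). Its mean in +EMD that day was 145. All 10 genes of a list of late muscle products, myosins, actins, troponins and titin among them, fell on day 1 in Q133H and in Δ95–99, with median differences of -4.38 and -3.54, and on day 2 all 10 in Q133H (median -3.38, with 15% of all genes called lower) and 6 in Δ95–99 (median -1.36, with 8.81%). Over the same comparisons the median of the 9 synapse members was -1.89, -1.78, -1.74 and -0.67.

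Genes with the most similar pattern were ranked by Pearson correlation of group means over the 18 groups, among 13515 genes, as a description in which all points share the same libraries. Chrna1 was nearest to Cavin4 (r = 0.991), Mylpf (0.989) and Cand2 (0.989). Chrng was nearest to Hrc (0.991), Mybph (0.989) and Myh3 (0.988), which are products of differentiated muscle, and Chrnd to Klhl40 (0.989), Dtna (0.983) and Myl6b (0.982). Of the clustering genes, Rapsn was nearest to Rassf3 (0.983), Trio (0.983) and Shb (0.981), Dok7 to Casz1 (0.981), Erbb3 (0.979) and Prkag3 (0.977), and Musk to Arhgef37 (0.974), Tnni1 (0.969) and Fyn (0.961). Lower values were found for Lrp4, with Ap5m1 (0.958), Stk17b (0.954) and Ahdc1 (0.951), for Chrnb1, with Socs7 (0.955), Dvl1 (0.953) and Col23a1 (0.952), and for Agrn, with Zfp296 (0.872), Oas1b (0.862) and Aloxe3 (0.858). Between the members themselves the 8 genes other than Agrn correlated at 0.79 to 0.98 over the groups, and Agrn correlated with them at -0.46 to -0.60.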

How the data were processed

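RNA of 6 H2K lines on days 0, 1 and 2 was sequenced by the provider (DNBseq, poly-A, paired ends). Per the labels and the study's methods, the authors aligned reads with HISAT2 to mm10 and compared groups with DESeq2. Each of the 27 deposited tables compares 2 groups and holds 2 expression columns, whose values are signal in units of normalized count, beside the authors' fold changes, p-values and q-values, which were not used. These expression columns are not plain group means. Their average is the mean normalized count of the table's 6 libraries, and its steps gave the whole reads of all 54 libraries: 19653 genes, 0 negative counts, largest relative residual 1.03e-14, and size factors that came out again within 5.33e-15. In a simulation 19540 of 19541 genes were recovered exactly. A recovered library is known by its group only, and its number is a name.

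Reads divided by size factors, plus a pseudocount of 1, were log2 transformed and tested with limma 3.58.1 (R 4.3.3, lmFit and eBayes with trend) in a single fit of 54 libraries and 18 groups with 49 comparisons, over 15808 genes with a mean of at least 1. A call needed an adjusted p under 0.05 and 2-fold. On simulated data for Q133H against wildtype on day 1, 91 of 100 genes changed 2.5-fold and 100 of 100 changed 4-fold were called, with 3 false calls among 15798 genes. The simulated libraries were independent draws with a fixed dispersion, no library apart and no other difference between groups. Only genes with a mean of at least 10 were changed, so these rates need not hold for the real libraries. The genes described, and the lists, were chosen with earlier results of these data known. Of the other synapse genes, those named were the 3 with the largest and the 3 with the smallest fold against wildtype on day 2 among those called in each line, of which 1 is not reported here, and the likeness ranking names the nearest 3 of each gene. Myog, Myf5, Pax7, Mef2c and the markers of other cell types were named after their values were seen. Alternatives varied the scaling, filter, pseudocount, threshold and libraries. Gene numbers were matched to symbols with RefSeq (17824 of 19653). Python 3.11.15, numpy 2.4.6 and pandas 2.3.3 were used.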

Additional observations from a re-analysis of the deposited data

Results flagged for a closer look

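In 21 cases the change of a gene between days in a line differed from its change in wildtype by a test of the difference itself (limma, adjusted p under 0.05 and 2-fold, both changes sharing the same scale). All values are the line's log2 change minus the wildtype change. From day 0 to day 1 of Q133H the values were -3.65 for Chrng, -2.66 for Dok7, -2.64 for Lrp4, -2.18 for Musk, -2.10 for Chrnd, -2.03 for Chrna1, -1.36 for Chrnb1 and -1.15 for Rapsn. In Δ95–99 over the same days they were -1.87 for Chrng, -1.54 for Dok7, -1.41 for Musk and -1.05 for Lrp4. For +EMD they were -1.19 for Chrnb1, -1.07 for Rapsn and -1.06 for Lrp4, and for S54F -1.05 for Lrp4. The 3 Lrp4 values of +EMD, S54F and Δ95–99 were all within 2-fold without library 1 of wildtype day 0 (-0.94, -0.93 and -0.93) and without library 3 of wildtype day 1 (-0.93, -0.92 and -0.92). That of +EMD was also within 2-fold without its library 3 of day 0 (-0.98), and that of Δ95–99 without its library 3 of day 0 (-0.86) or library 1 of day 1 (-0.97). The Rapsn value of +EMD was within 2-fold without library 1 of +EMD day 1 (-0.96).

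From day 1 to day 2 the change exceeded that of wildtype by 1.58 for Dok7, 1.44 for Chrng and 1.21 for Musk in Δ95–99, by 1.15 for Chrng in +EMD, and by 1.78 for Dok7 in Q133H. The Chrng value of +EMD had an adjusted p of 0.0435, which rose above 0.05 without any single library of the 4 groups compared other than +EMD day 2 library 2. The Dok7 values of Δ95–99 were not called without library 3 of day 1, at -1.32 for day 0 to day 1 and 1.36 for day 1 to day 2. Of the 21, 10 were kept when the closest pair of libraries in each group was averaged to a single value. All 8 falls of Q133H from day 0 to day 1 were among those kept, and most of the other calls were lost. All of these comparisons share the wildtype libraries.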

How the results depend on the processing

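Of the 441 gene results, none that was called reversed its direction under any alternative run, while some small differences that were not called changed sign. Counts are given as higher and lower calls, in the order of lines against wildtype (0 and 32), days within a line (42 and 3), line change minus wildtype change (5 and 16) and transduced lines against EMD-/y (0 and 30). With no fold minimum they were 5 and 54, 72 and 7, 11 and 25, and 2 and 47. At an adjusted p under 0.01, 5 calls were lost, and the higher changes beyond wildtype fell to 3. Scaling to the total count lost 14 calls and gained 6, and gave 1 higher against wildtype, 1 higher against EMD-/y and 5 lower between days, and a fit of the compared groups alone lost 6 calls, gained 1 and gave 1 lower between days. Leaving out 1 library at a time gave 0 to 1 and 31 to 35, 40 to 44 and 1 to 3, 4 to 7 and 13 to 18, and 0 to 1 and 28 to 31, with 57 of 3186 gene results losing their call and 62 gaining it. Chosen after seeing the data, averaging the closest pair of libraries lost 21 calls, gained 3 and gave 1 higher and 9 lower changes beyond wildtype, and omitting the library apart in each group lost 4 calls, gained 26 and gave 1 higher against wildtype, 9 higher and 23 lower changes beyond wildtype and 1 higher against EMD-/y. Where the text does not name it, the cause was not tested. Pseudocount 0.25 and a mean of at least 10 changed no call, and without a filter 1 call was lost. A fold between the authors' group means was not run, since the deposited values are not plain means. No paired analysis was possible because the recovered libraries carry no replicate number. At this depth Chrne could not be compared.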
